A study of Mus musculus with 4 samples.

Results

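The effect of a brain-penetrant Trem2-activating antibody was examined in those microglia of amyloid-bearing mice that lay in homeostatic clusters 1 day after dosing. The cells were taken by the clusters that the authors deposited, as the 2 clusters numbered 0 and 3 at their coarser clustering resolution. They comprised 11595 of the 74758 cells of the series, 1055 from AppSAA mice given ATV:4D9 and 10540 from AppSAA mice given the isotype control. The group given ATV:4D9 consisted of 4 male AppSAA;TfRmu/hu mice (listed as 8 months old) that received 10 mg per kg of 4D9, an antibody against mouse Trem2, on an antibody transport vehicle (ATV) whose Fc domain binds the human transferrin receptor. The control group was 4 male AppSAA;TfRmu/hu mice given a control antibody labeled ATV-DNP02, which was read here as the isotype on the same vehicle, ATV:ISO. All 8 mice carried the humanized App knock-in with the Swedish, Arctic and Austrian changes on both alleles and a transferrin receptor whose apical domain is human, so the knock-in receptor through which ATV is carried was present in the controls as well. Further groups of 4 mice, AppSAA;TfRmu/hu given 4D9 without the vehicle and WT;TfRmu/hu given ATV:4D9 or the isotype, served only for the comparisons that name them. Among the WT isotype mice, 1 was recorded as female. The cells were sorted brain myeloid cells, for which the study's texts name CD11b in 1 place and CD45 in another. The pools were 4, with 1 mouse of every group in each. The clusters were drawn by the authors from the expression of these same cells, so a cell with a profile far from the homeostatic one was not a member.

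Microglia are the resident macrophages of the brain. In the healthy brain they express a set of surface receptors and transcription factors, among them P2ry12, Tmem119, Cx3cr1 and Sall1, that is lowered when they respond to plaques or damage. Trem2 is a lipid receptor on these cells that signals through its adaptor Tyrobp (DAP12) and the kinase Syk, and it is required for the plaque-associated program known as disease-associated microglia (DAM), which includes Apoe, Cst7, Lpl and Axl. Interferon-stimulated genes, the NF-kB targets of inflammatory signaling and the immediate early genes are separate programs that microglia can switch on within hours.

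A small share of the cells of ATV:4D9 mice was found in the homeostatic clusters. They held 61.9, 49.9, 55.1 and 57.0% of the cells of the isotype mice of pools 1 to 4 and 2.65, 10.9, 4.35 and 7.24% of the cells of the ATV:4D9 mice. The means were 56.0 ± 4.97% and 6.29 ± 3.63% (SD, n = 4 each, as for every mean ± SD that follows). The groups did not overlap (exact permutation test, two-sided p = 0.0286, the smallest that 4 against 4 mice can give, and 0.0571 adjusted over 4 measures). The homeostatic cells were spread differently over the pair of clusters. Cluster 3 made up 47.5, 43.7, 42.9 and 45.2% of them in the isotype mice and 65.0, 53.5, 64.8 and 65.2% in the ATV:4D9 mice, again without overlap (difference 17.3 percentage points, exact permutation p = 0.0286, adjusted p = 0.0571). Within the isotype mice, cluster 3 differed from cluster 0 mainly in the immediate early genes, of which 21 of 21 were higher in cluster 3 with a median log2 ratio of 2.57, and in the NF-kB targets, with a median of 1.55. The median over all genes was -0.09 on the same scale. Since the share of cluster 3 differed between the groups, these genes are also given for each cluster separately.

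The median cell of the isotype mice held 7245, 7386, 8225 and 8231 UMIs (unique molecular identifiers, each a counted RNA molecule), and that of the ATV:4D9 mice 7954, 8070.0, 9709 and 9556. The medians were higher in the ATV:4D9 mouse of all 4 pools, but the groups overlapped (exact permutation p = 0.171). Mitochondrial transcripts took 1.27 ± 0.248% and 1.52 ± 0.405% of the UMIs of the median cell (exact permutation p = 0.343). That test leaves the pairing by pool out of account. In pools 1 to 4 the percentages were 1.13, 1.01, 1.40 and 1.55 in the isotype mice and 1.21, 1.13, 1.82 and 1.91 in the ATV:4D9 mice. They were thus higher in the ATV:4D9 mouse of all 4 pools, in overlapping groups. At the finer clustering of the authors, 3.61 ± 0.439% of the isotype and 27.01 ± 4.94% of the ATV:4D9 members lay outside the corresponding homeostatic clusters, most of the latter in finer clusters 1 (16.4 ± 2.36% of the members against 0.853 ± 0.113% in the isotype mice) and 3 (7.43 ± 3.31% against 1.64 ± 0.353%). The authors drew the clusters from these same transcripts, so the marker levels describe the members and are no independent check of the label. Of 18 homeostatic genes, 17 in the isotype mice and 18 in the ATV:4D9 mice were higher in the members than in the other cells of the same mice, while DAM genes were lower in the members (median log2 ratio -2.56 and -0.91). Markers of T and NK cells summed to at most 1.99 CPM (UMI counts scaled to a common library size) in any ATV:4D9 mouse, markers of monocytes to at most 7.44 and those of border macrophages to at most 26.8, against 18619 or more for 8 microglial genes. The corresponding sums were at most 1.99 for neurons, 156 for astrocytes, 132 for oligodendrocytes, 237 for neutrophils, 285 for B cells and 729 for endothelial cells, against 161, 116, 254, 302 and 643 for the last 5 in the isotype mice. Of the 8 genes in each list, 1 for neutrophils, 4 for B cells and 3 for endothelial cells were at 0 in the ATV:4D9 mice. Those sums thus rest on part of each list. Among the members, 179 cells had a barcode that was also found in another pool. The plot of cell shares by mouse shows the measures of the cells.

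**Figure D1:**
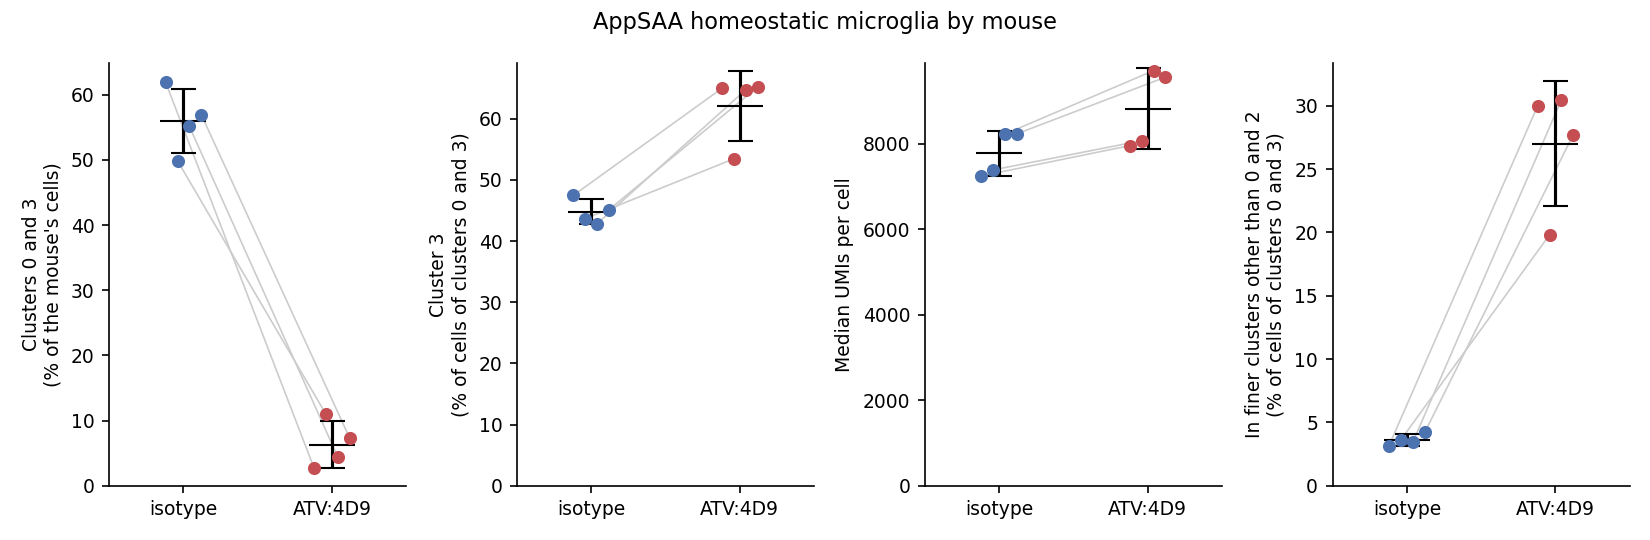
Measures of the homeostatic cells in each AppSAA mouse, 4 given the isotype (blue) and 4 given ATV:4D9 (red), with the mean and SD in black and a gray line joining the mice of a pool. From left to right, the panels give the percent of a mouse's cells in clusters 0 and 3, the percent of those cells in cluster 3, the median UMIs per cell and the percent of those cells in finer clusters other than 0 and 2. The groups are apart in all panels but that of the UMIs.

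UMIs were then summed per mouse, giving 983429 to 4268379 UMIs from 105 to 419 cells for an ATV:4D9 mouse and 15107999 to 30201458 UMIs from 1900 to 3378 cells for an isotype mouse, so the ATV:4D9 values carry most of the counting error. Among 12545 genes tested with edgeR with the pool as a block, 1165 rose and 747 fell (15.2% of the genes, 9.29% higher and 5.95% lower), of which 112 rose and 36 fell more than 2-fold. The median gene moved by -0.02 on the log2 scale after normalization for composition. When the sums were scaled by their UMI totals alone, the median shifted to -0.13 and the calls became 722 higher and 2308 lower (5.76% and 18.4% of the genes), with all 747 falls and 722 of the 1165 rises kept. Those further falls and the rises that were not kept depend on the scaling, and the fold changes that follow are given after normalization for composition. The number of calls was 563 without the block and 1055 with cells of finer clusters 0 and 2 only (5.36% of the genes higher and 3.08% lower).

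**Figure D2:**
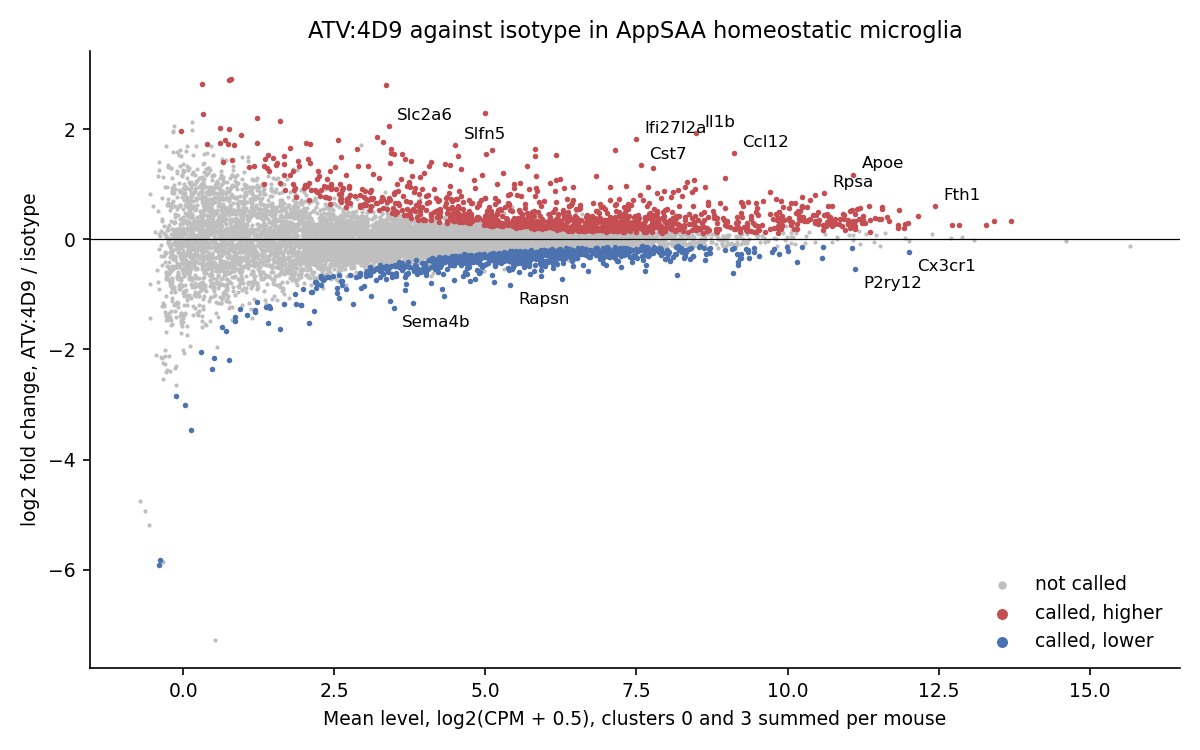
Each of the 12545 genes is placed by its mean level in the AppSAA isotype and ATV:4D9 mice (log2 of CPM plus 0.5) and by its log2 fold change between them in clusters 0 and 3. Genes called by edgeR are red where higher (1165) and blue where lower (747) and the others gray, and the largest fold changes are those of genes at very low levels.

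Among the genes with the largest rises at a level of 10 CPM or more were Slc2a6, Il1b and Fxyd5, with Slfn5, Oas1a and other interferon-stimulated genes that follow with their list. The level had to be reached in only 1 of the groups, and Slc2a6, AB124611, Ifi207 and Oas1a reached it in the ATV:4D9 mice alone. Slc2a6 (chr2:27021363-27027998 in GRCm38, like the other positions of whole genes), a member of the facilitative glucose transporter family, was at 4.17, 2.84, 3.10 and 3.52 CPM in the isotype mice and at 27.6, 10.4, 15.9 and 12.9 CPM in the ATV:4D9 mice of pools 1 to 4. Every ATV:4D9 mouse lay above every isotype mouse (log2 fold change 2.06 ± 0.23 SE, adjusted p = 5.02e-07). Il1b (chr2:129364570-129371139), the proinflammatory cytokine interleukin-1 beta, stood at 121, 113, 182 and 150.4 CPM against 1007, 347, 441 and 498 CPM, again without overlap (log2 fold change 1.93 ± 0.19 SE, adjusted p = 6.9e-08). In the ATV:4D9 mice the homeostatic cells held more Il1b than the other cells of the same mice, whose median log2 ratio to them was -0.46, while Slc2a6 was higher in the other cells (1.39). Such ratios compare clusters that were drawn from these same transcripts. Fxyd5, a regulatory subunit of the sodium pump, rose from 25.4 ± 3.82 CPM to 87.1 ± 31.8 CPM (log2 fold change 1.65 ± 0.13 SE, adjusted p = 1.7e-09). Cd72, an inhibitory lectin receptor, rose from 16.5 ± 3.92 CPM to 51.7 ± 12.1 CPM (log2 fold change 1.63 ± 0.11 SE, adjusted p = 6.51e-11). AB124611 rose from 3.31 ± 0.578 CPM to 10.3 ± 3.80 CPM (log2 fold change 1.65 ± 0.19 SE, adjusted p = 8.31e-07).

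The falls were smaller. Sema4b (chr7:80186841-80226527), a transmembrane semaphorin, was at 15.9, 15.96, 14.8 and 14.5 CPM in the isotype mice and at 4.59, 9.22, 5.96 and 4.71 CPM in the ATV:4D9 mice (log2 fold change -1.25 ± 0.16 SE, adjusted p = 2.94e-06). Hlf (chr11:90336536-90390895), a transcription factor of the PAR bZIP family, was at 17.7, 16.7, 22.3 and 21.2 CPM and 2.30, 9.82, 6.96 and 10.2 CPM (log2 fold change -1.15 ± 0.20 SE, adjusted p = 0.000189). Both genes were lower in all 4 ATV:4D9 mice than in any isotype mouse. Rapsn, whose product clusters acetylcholine receptors at the neuromuscular junction, was the most abundant of the 10 largest falls, with 55.2 ± 8.06 CPM and 28.5 ± 9.03 CPM (log2 fold change -0.83 ± 0.14 SE, adjusted p = 0.00014). The others were Nhsl2 (-1.11), the polyamine oxidase gene Paox (-1.04), the sulfotransferase gene Chst8 (-0.92), the phosphatase gene Ppm1l (-0.90), the adhesion gene Sdk1 (-0.88), 2900026A02Rik (-0.85) and Zc3h6 (-0.82). Single ATV:4D9 mice decided some of these calls. That of Paox was lost without the ATV:4D9 mouse of pool 4 (log2 -0.97, adjusted p = 0.0823) and that of Zc3h6 without the ATV:4D9 mouse of pool 2 (log2 -0.53, adjusted p = 0.229). The call of Zc3h6 was also lost in limma/voom, without the block, with thinned sums, in cluster 0 alone and with finer clusters 0 and 2 only (log2 -0.83 to -0.71, adjusted p up to 0.239). The call of 2900026A02Rik was lost without the ATV:4D9 mouse of pool 1, 2 or 3 (log2 -0.77 to -0.62, adjusted p up to 0.194), and also without the block, in cluster 0 alone and with finer clusters 0 and 2 only (log2 -0.94 to -0.82, adjusted p up to 0.216). In cluster 0 alone Paox, Chst8, Sdk1, 2900026A02Rik and Zc3h6 did not pass (log2 -1.14 to -0.69, adjusted p = 0.0559 to 0.216). The call of Sdk1 was lost under 2 alternatives in all, neither of them a left-out mouse, with adjusted p up to 0.248. Over all its alternatives the log2 of Sdk1 was as small as -0.52.

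**Figure D3:**
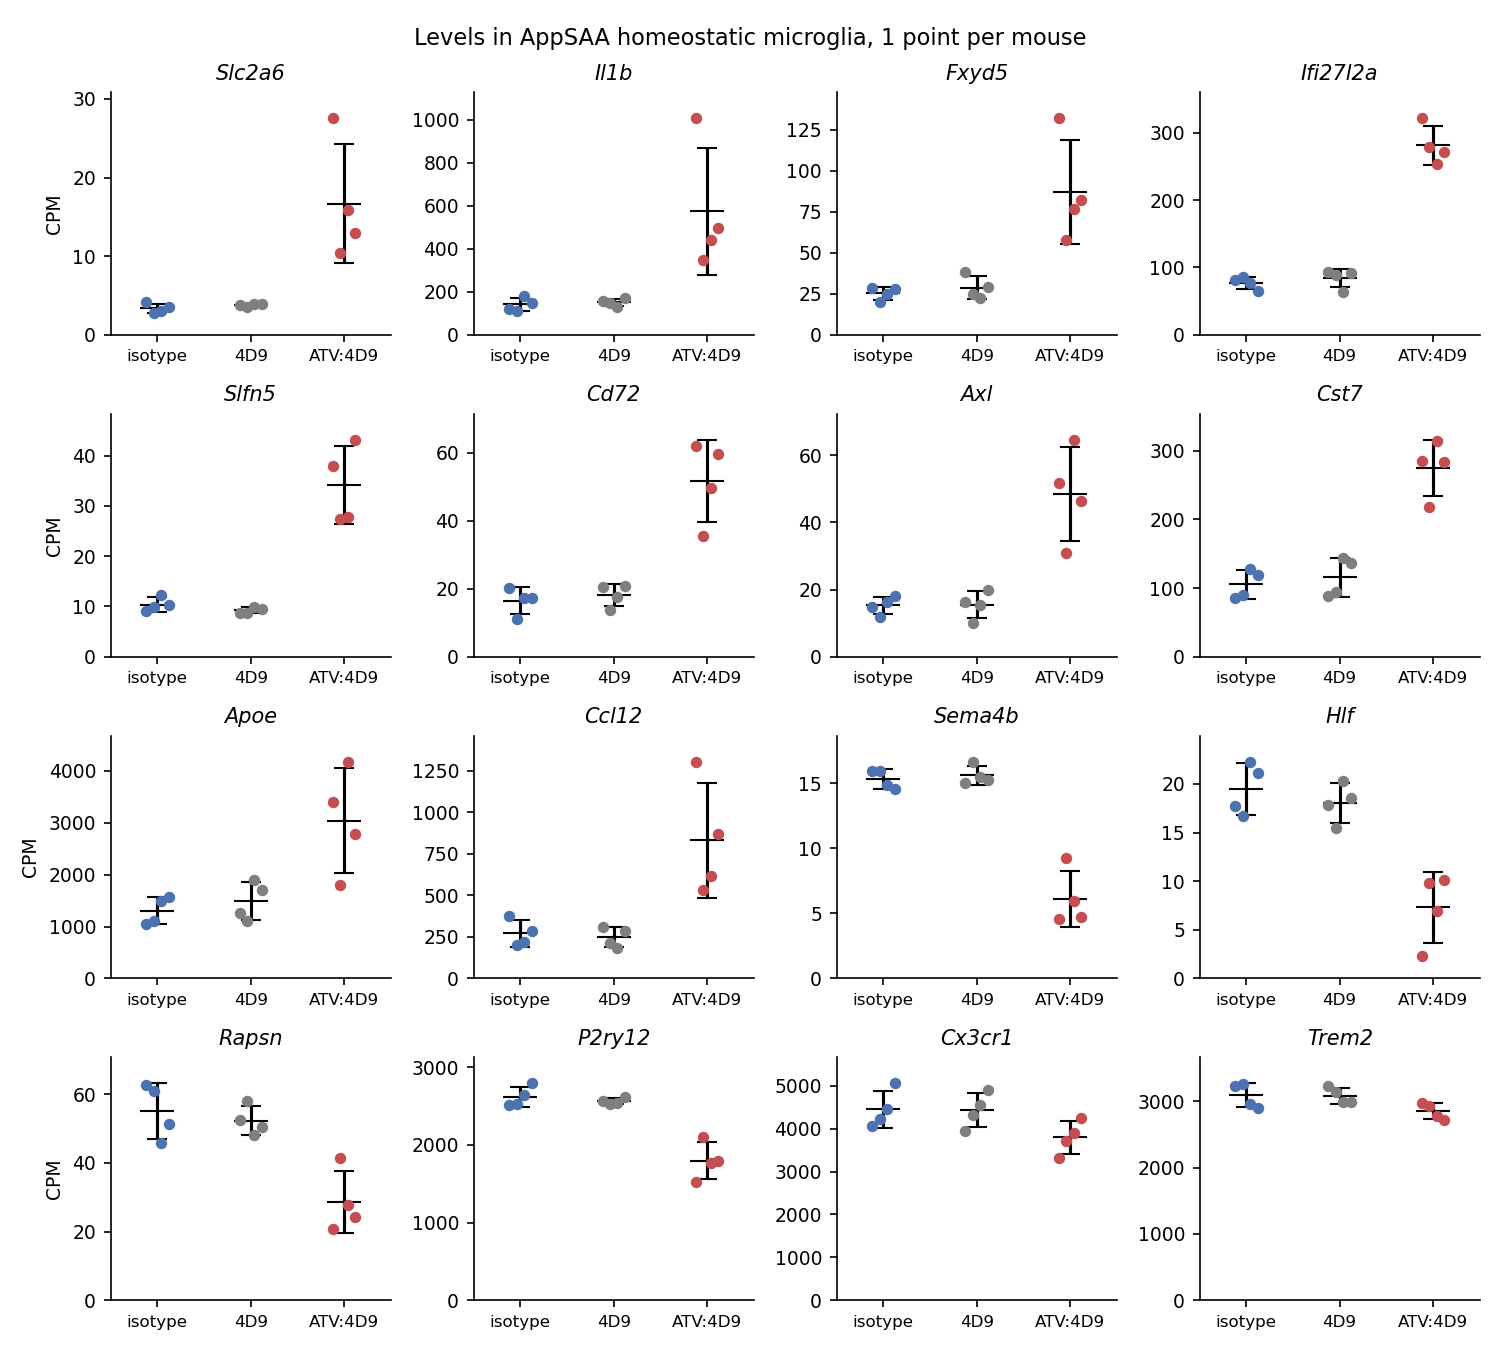
Levels in CPM of 16 genes in the homeostatic microglia of AppSAA mice given the isotype (blue), 4D9 (gray) or ATV:4D9 (red), 1 point per mouse in order of pool, with the mean and SD in black and axes that start at 0. The ATV:4D9 mice lie above all isotype mice for Slc2a6 through Ccl12 and below them for Sema4b, Hlf, Rapsn and P2ry12, whereas Cx3cr1 and Trem2 overlap and the 4D9 mice lie near the isotype mice. All were taken from the named genes, and the share of all genes with groups apart is not given.

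Interferon-stimulated genes formed the list with the highest median. Of 25 tested, 20 rose and 0 fell, against 9.29% of all genes higher, and the median log2 fold change was 0.97 against -0.02 over all genes. Slfn5, a growth-regulatory Schlafen family gene, was at 8.99, 9.83, 12.4 and 10.3 CPM in the isotype mice and 37.9, 27.4, 27.8 and 43.1 CPM in the ATV:4D9 mice (log2 fold change 1.72 ± 0.15 SE, adjusted p = 1.17e-08). Oas1a, which encodes a sensor of double-stranded RNA, had 5.30, 5.21, 5.26 and 2.77 CPM and 29.9, 11.3, 12.9 and 10.4 CPM (log2 fold change 1.65 ± 0.24 SE, adjusted p = 2.06e-05). Neither gene overlapped between the groups, but Oas1a did not pass in cluster 0 alone (log2 0.55, adjusted p = 0.576). Ifitm3, which blocks viral entry, went from 66.0 ± 6.07 CPM to 215 ± 79.1 CPM (log2 fold change 1.62 ± 0.13 SE, adjusted p = 2.35e-09). Isg15, a ubiquitin-like modifier, rose from 27.4 ± 3.93 CPM to 75.3 ± 36.5 CPM (log2 fold change 1.34 ± 0.14 SE, adjusted p = 1.89e-07). The transcription factor Irf7 (1.38), the nucleic acid sensor Zbp1 (1.55), the feedback inhibitor Usp18 (1.40) and the signal transducer Stat2 (0.49) rose too. The members that did not pass were Cmpk2 (0.95), Ifit3b (0.74), Oasl1 (0.57), Ifih1 (0.24) and Gbp2 (0.18). Outside the list, Ifi27l2a was at 81.5, 85.1, 77.6 and 64.5 CPM and 322, 279, 253 and 271 CPM (log2 fold change 1.82 ± 0.15 SE, adjusted p = 2.35e-09). Ifi207, another interferon-inducible gene, was at 4.40, 3.50, 3.69 and 5.10 CPM and 12.6, 12.2, 18.9 and 14.4 CPM (log2 fold change 1.77 ± 0.23 SE, adjusted p = 2.65e-06). Oas1a, Ifi207 and Ifi27l2a belong to families of similar genes, between which reads can be misassigned. The other cells of the ATV:4D9 mice held still more of these transcripts, with a median log2 ratio of homeostatic to other cells of -2.38 over the list. As the clusters were drawn from these same transcripts, that ratio describes the members and is no separate result. In cluster 3 alone, 20 of 25 rose with a median of 1.03, where 8.25% of all genes rose, and in cluster 0 alone 13 of 25 rose with a median of 0.86, where 3.54% of all genes did.

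Interferon-stimulated genes are known for an upstream element bound by STAT and IRF factors, and 3 promoters of risen members are shown for it, with every match of its core GAAANNGAAA in capitals. Sequences are from RefSeq (GRCm38.p6) and run 5′ to 3′ on the strand of the gene, from 250 bases before to 50 bases after the start of the gene in RefSeq. For Slfn5 that start is the one of a transcript which begins inside the span of the gene in GENCODE, downstream of the first GENCODE start. The promoter of Slfn5 lies at chr11:82951852-82952151, plus strand, that of Oas1a at chr5:120907476-120907775, minus strand and that of Isg15 at chr4:156200769-156201068, minus strand.
Slfn5: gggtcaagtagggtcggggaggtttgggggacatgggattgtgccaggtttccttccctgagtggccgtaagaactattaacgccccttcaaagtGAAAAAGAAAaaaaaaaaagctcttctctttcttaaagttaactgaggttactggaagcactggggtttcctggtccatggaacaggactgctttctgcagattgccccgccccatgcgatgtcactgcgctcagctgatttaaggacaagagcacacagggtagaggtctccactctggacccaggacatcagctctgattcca
Oas1a: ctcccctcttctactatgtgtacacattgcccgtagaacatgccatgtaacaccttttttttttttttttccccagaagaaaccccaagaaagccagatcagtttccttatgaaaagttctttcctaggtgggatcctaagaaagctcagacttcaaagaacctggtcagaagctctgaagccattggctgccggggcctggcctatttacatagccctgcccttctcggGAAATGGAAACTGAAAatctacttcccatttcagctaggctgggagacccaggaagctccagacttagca
Isg15: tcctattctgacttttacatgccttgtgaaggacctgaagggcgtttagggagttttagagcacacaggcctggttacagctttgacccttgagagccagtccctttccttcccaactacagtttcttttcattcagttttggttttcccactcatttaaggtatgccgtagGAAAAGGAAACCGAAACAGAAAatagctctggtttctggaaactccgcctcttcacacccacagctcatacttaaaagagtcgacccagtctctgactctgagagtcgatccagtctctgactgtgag
The first match began 155 bases before the start in Slfn5, 20 in Oas1a and 78 in Isg15, and Oas1a and Isg15 held 2 and 3 overlapping matches. Searched on both strands, the core was found in 13 of the 19 members with a promoter in the table, and in 10 of the 14 that also rose. It occurred in 3.44% of all 32851 promoters of this length. A member with several promoters was counted if any of them held the core, so the counts of members and the share of promoters are unlike measures. For each gene shown, the first promoter that held a match was taken.

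Inflammatory genes rose as well, with counts that depended on the cluster summed. Of 20 TNF and NF-kB genes, 15 rose and 0 fell in the summed cells, where 9.29% of all genes rose, with a median log2 fold change of 0.67. In cluster 3 alone the numbers were 11 and 0 with a median of 0.45 (8.25% of all genes rose), and in cluster 0 alone 4 and 0 with a median of 0.22 (3.54% of all genes rose). Il1b rose in both clusters, by 1.61 in cluster 3 (adjusted p = 4.89e-07) and by 0.90 in cluster 0 (adjusted p = 8.49e-05). Tnf, the cytokine tumor necrosis factor, went from 126 ± 41.3 CPM to 309.9 ± 119 CPM (log2 fold change 1.30 ± 0.13 SE, adjusted p = 9.32e-08). Il1a, interleukin-1 alpha, rose from 225 ± 32.2 CPM to 476 ± 82.5 CPM (log2 fold change 1.09 ± 0.12 SE, adjusted p = 5.43e-07). The feedback inhibitors Nfkbia (0.77), Tnfaip3 (0.72), Nfkbiz (0.76) and Nfkbid (0.67) rose with the subunit genes Nfkb2 (0.67) and Relb (0.31), while Nfkb1 (0.09, adjusted p = 0.239) and Rel (0.04, adjusted p = 0.822) did not pass. Cluster 3 was high in this list and made up more of the ATV:4D9 cells. Of its own cells, 33.6 ± 6.66% in the ATV:4D9 mice and 5.57 ± 0.663% in the isotype mice lay outside finer clusters 0 and 2. With finer clusters 0 and 2 only, 14 of 20 genes rose and 0 fell, with a median of 0.54 (5.36% of all genes rose).

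The immediate early genes, which encode transcription factors of the AP-1 and EGR families and can be induced by stimulation and by tissue dissociation, passed more often in sums over both clusters than in either alone. In the summed cells 12 of 21 rose with a median of 0.47 (9.29% of all genes rose), among them Ier2 (0.71), Fos (0.59), Atf3 (0.58) and Junb (0.37). In cluster 3 alone 3 rose, namely Ier3 (0.73), Ier2 (0.35) and Zfp36 (0.26), and Jun fell (-0.28), with a median of 0.16 (8.25% of all genes rose). In cluster 0 alone 0 rose and 1 fell, with a median of -0.02 (3.54% of all genes rose). With finer clusters 0 and 2 only, summed, 10 rose with a median of 0.34 (5.36% of all genes rose). Fos stood at 2892, 2309, 2287 and 2080.1 CPM in the isotype mice and at 4719, 3284, 3393 and 3083 CPM in the ATV:4D9 mice for the summed cells, with its groups apart. Maff had the largest rise of the list (log2 fold change 0.97 ± 0.29 SE, adjusted p = 0.0196). Its call was lost without the ATV:4D9 mouse of pool 1, 2 or 4 or the isotype mouse of pool 4 (log2 0.86 to 1.08, adjusted p up to 0.098), and also without the block, with thinned sums, among cells of 5000 to 15000 UMIs, in cluster 0 alone and with finer clusters 0 and 2 only (log2 0.47 to 0.94, adjusted p up to 0.746). Whether the effects of ATV:4D9 differed between clusters 0 and 3 was not tested.

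Chemokine genes moved in part. Of 17 chemokine and chemokine receptor genes 6 rose and 1 fell, the latter Cx3cr1, where 9.29% of all genes rose and 5.95% fell. Ccl12, a ligand of Ccr2 that recruits monocytes, was at 378, 203, 221 and 283 CPM in the isotype mice and 1306, 535, 619 and 868 CPM in the ATV:4D9 mice, without overlap (log2 fold change 1.57 ± 0.10 SE, adjusted p = 1.85e-11). Ccl2, its relative with the same receptor, stood at 83.9, 54.0, 62.6 and 88.7 CPM and 162, 147, 139 and 174 CPM (log2 fold change 1.15 ± 0.14 SE, adjusted p = 8.62e-07). The membrane-bound Cxcl16 was at 88.5 ± 5.75 CPM and 176 ± 25.9 CPM (log2 fold change 0.96 ± 0.06 SE, adjusted p = 1.38e-11). These 3 genes passed in cluster 0 alone as well, with log2 fold changes of 1.18, 0.75 and 0.77. Cxcl10 (0.97) and Ccl4 (0.56) also rose in the summed cells, and Ccl4 was at 0.07 in cluster 0 alone (adjusted p = 0.793). Ccl3, abundant at 1011 ± 203 CPM and 1139 ± 183 CPM, did not pass (log2 0.17, adjusted p = 0.196).

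For the NF-kB program, the promoters of its inhibitors Nfkbia (chr12:55492598-55492897, minus strand) and Tnfaip3 (chr10:19015361-19015660, minus strand) are shown, which NF-kB itself is known to switch on, with matches of GGGNNNTTCC or its reverse complement in capitals.
Nfkbia: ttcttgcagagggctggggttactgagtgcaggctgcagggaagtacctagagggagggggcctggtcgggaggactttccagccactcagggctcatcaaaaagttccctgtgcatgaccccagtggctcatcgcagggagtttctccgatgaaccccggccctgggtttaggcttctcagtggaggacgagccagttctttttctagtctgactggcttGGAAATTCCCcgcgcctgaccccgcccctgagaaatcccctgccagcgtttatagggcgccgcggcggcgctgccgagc
Tnfaip3: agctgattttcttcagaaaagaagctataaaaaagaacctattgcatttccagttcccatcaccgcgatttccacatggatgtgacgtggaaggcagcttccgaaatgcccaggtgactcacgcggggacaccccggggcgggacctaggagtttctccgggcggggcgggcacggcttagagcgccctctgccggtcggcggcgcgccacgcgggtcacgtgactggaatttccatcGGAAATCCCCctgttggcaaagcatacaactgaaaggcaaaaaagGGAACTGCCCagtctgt
The match in Nfkbia and the first in Tnfaip3 began 29 and 12 bases before the start of the gene, for Tnfaip3 the more upstream of the starts in the table. The motif was present in 7 of 14 members with a promoter in the table, 5 of the 10 that rose, and in 5.56% of all promoters. Members were counted and promoters chosen as for the interferon element.

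Plaque-associated genes rose within cells still counted as homeostatic. Of 30 DAM genes, 19 rose and 0 fell, with a median log2 fold change of 0.32, and in cluster 3 alone 18 rose (9.29% and 8.25% of all genes rose). In cluster 0 alone 10 rose and 1 fell with a median of 0.13 (3.54% of all genes rose), and with finer clusters 0 and 2 only 13 rose and 1 fell with a median of 0.21 (5.36% of all genes rose), the gene that fell being Trem2 in both. Cst7, an inhibitor of cathepsins, was at 84.9, 90.2, 128 and 119 CPM in the isotype mice and at 285, 218, 315 and 283 CPM in the ATV:4D9 mice (log2 fold change 1.35 ± 0.07 SE, adjusted p = 6.41e-12). Apoe, the main lipid carrier of the brain, stood at 1057, 1113, 1496 and 1565 CPM and 3405, 1800.4, 4179 and 2782 CPM (log2 fold change 1.18 ± 0.15 SE, adjusted p = 2.94e-06). Axl, a receptor for the removal of apoptotic cells, had 14.9, 11.8, 16.3 and 18.02 CPM and 51.7, 30.9, 64.6 and 46.4 CPM (log2 fold change 1.55 ± 0.13 SE, adjusted p = 5.92e-09). Lpl, which hydrolyses triglycerides, had 34.0, 35.7, 40.1 and 47.5 CPM and 91.9, 52.1, 71.5 and 87.5 CPM (log2 fold change 0.88 ± 0.11 SE, adjusted p = 1.2e-06). Cst7, Apoe, Axl and Lpl were each higher in every ATV:4D9 mouse than in any isotype mouse, and each passed in cluster 3 and in cluster 0 taken alone. They are named as set genes or as the called extreme of a list, and the share of all genes with groups apart is not given here. Cybb, a subunit of the phagocyte oxidase (1.45), Itgax (0.73), Clec7a (0.53) and Lyz2 (0.67) rose. The late plaque genes Spp1 (0.21, adjusted p = 0.247), Gpnmb (0.53, adjusted p = 0.221) and Igf1 (0.37, adjusted p = 0.345) did not pass. Their estimates were positive too, that of Gpnmb near that of Clec7a, so the missing calls do not show that they were unchanged. The DAM transcripts of the homeostatic cells stayed under those of the other cells of the same mice, in which Cst7, Lpl and Axl were higher by a median log2 ratio of 1.85, 2.25 and 1.32. Because the clusters were drawn from these same transcripts, those ratios describe the members and are no separate result.

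Of all genes 9.29% rose and 5.95% fell, and among 19 lipid handling genes 4 rose, namely Apoe, Lpl, the lipid droplet coat gene Plin2 (0.47) and the lysosomal cholesterol carrier gene Npc2 (0.27), and 0 fell. The cholesterol exporters Abca1 (-0.09, adjusted p = 0.452) and Abcg1 (-0.11, adjusted p = 0.353) did not pass. Sterol synthesis genes rose in 11 of 23 cases, with a median log2 fold change of 0.34, in 5 of 22 in cluster 3 alone, in 2 of 22 in cluster 0 alone and in 3 of 23 with finer clusters 0 and 2 only. The shares of all genes that rose in these 4 sums were 9.29, 8.25, 3.54 and 5.36%. Those that rose in the summed cells included Idi1 (0.66) and Fdps (0.44). Sqle, the squalene epoxidase, had the largest rise of the list but a low level, 0.357, 0.33, 1.13 and 0.718 CPM against 3.45, 2.08, 1.99 and 4.71 CPM (log2 fold change 2.21 ± 0.43 SE, adjusted p = 0.000584). Its call was lost without the ATV:4D9 mouse of pool 4 (log2 1.86, adjusted p = 0.07), and also in cluster 0 alone and with finer clusters 0 and 2 only (log2 1.69 to 2.02, adjusted p up to 0.142).

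Part of the homeostatic signature was lowered. Of 18 homeostatic genes, 1 rose and 8 fell (5.95% of all genes fell), with a median log2 fold change of -0.11. P2ry12, the ADP receptor that guides microglial processes, was at 2519, 2534, 2641 and 2795 CPM in the isotype mice and 1527, 2109, 1767 and 1794 CPM in the ATV:4D9 mice, without overlap (log2 fold change -0.54 ± 0.06 SE, adjusted p = 4.96e-07). Cx3cr1, the receptor for the neuronal chemokine fractalkine, was at 4062, 4233, 4468 and 5061 CPM and 3312, 3723, 3904 and 4252 CPM, with overlapping groups but a lower value in the ATV:4D9 mouse of each pool (log2 fold change -0.23 ± 0.04 SE, adjusted p = 0.000166). The call of Cx3cr1 was lost without the block and in cluster 0 alone (log2 -0.23 to -0.14, adjusted p up to 0.244), and that of Sall1 likewise without the block and in cluster 0 alone (log2 -0.30 to -0.20, adjusted p up to 0.274). P2ry13 (-0.38), Gpr34 (-0.34), the fructose transporter gene Slc2a5 (-0.26), Golm1 (-0.17), Tgfbr1 (-0.17) and the identity factor Sall1 (-0.30) fell too. Tmem119 stood at 1371, 1135, 1281 and 1338 CPM and 1286, 1241, 1139 and 1195 CPM and did not pass (log2 fold change -0.07 ± 0.05 SE, adjusted p = 0.333). Nor did the growth factor receptor gene Csf1r (-0.04). Olfml3, a secreted protein gene of homeostatic microglia, went the other way in overlapping groups, from 1665, 1341, 1231 and 1149 CPM to 2377, 1992, 1530.3 and 1547 CPM, higher in every pool (log2 fold change 0.46 ± 0.05 SE, adjusted p = 6.56e-07). Scaled by UMI totals, 15 of the 18 genes fell (18.4% of all genes did), Tmem119 among them. In cluster 3 alone 9 fell and in cluster 0 alone 3, where 4.32% and 1.73% of all genes fell. Of 19 TGF-beta pathway and identity factor genes, 1 rose, the circadian-related repressor Bhlhe41 (0.32), and 4 fell, namely Sall1, Mef2a (-0.23), Ski (-0.20) and Tgfbr1.

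The targeted receptor did not pass itself, and its adaptor Tyrobp did. Trem2 was at 3229, 3259, 2963 and 2902 CPM in the isotype mice and at 2967, 2931, 2782 and 2719.6 CPM in the ATV:4D9 mice, lower in each pool but with overlapping groups and not past the threshold (log2 fold change -0.11 ± 0.05 SE, adjusted p = 0.118). It passed as lower without the filter on low counts (log2 -0.14, adjusted p = 0.0323), in cluster 0 alone (log2 -0.17, adjusted p = 0.0316), with finer clusters 0 and 2 only (log2 -0.16, adjusted p = 0.039) and when scaled by UMI totals (log2 -0.23, adjusted p = 0.000318). Its adaptor Tyrobp rose, from 3554, 3519, 2978 and 3157 CPM to 4294, 3993, 3765 and 3757 CPM, without overlap (log2 fold change 0.26 ± 0.05 SE, adjusted p = 0.000339). That call was lost with finer clusters 0 and 2 only (log2 0.16, adjusted p = 0.0626) and without the block (log2 0.26, adjusted p = 0.183). The kinase Syk was at 77.4 ± 5.07 CPM and 70.5 ± 4.24 CPM (log2 fold change -0.13 ± 0.07 SE, adjusted p = 0.214). The phospholipase Plcg2 was at 81.2 ± 1.94 CPM and 83.1 ± 4.46 CPM (log2 fold change 0.04 ± 0.06 SE, adjusted p = 0.798), and neither was past the threshold. Without the ATV:4D9 mouse of pool 2, Syk passed as lower (log2 -0.23, adjusted p = 0.049). Of all genes 9.29% rose and 5.95% fell, and of 23 pathway genes 3 rose, Tyrobp, the adaptor Lat2 (0.49) and the regulatory subunit gene Pik3r1 (0.16), and 5 fell, namely the kinase genes Pik3cg (-0.35) and Btk (-0.22), the protease gene Malt1 (-0.35), the inhibitory receptor gene Cd33 (-0.23) and the phosphatase gene Inpp5d (-0.17).

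Tfrc, the transferrin receptor that the vehicle binds, was at 4.40, 5.21, 6.38 and 6.53 CPM in the isotype mice and 5.74, 4.46, 8.94 and 7.93 CPM in the ATV:4D9 mice and did not pass (log2 fold change 0.20 ± 0.18 SE, adjusted p = 0.574). Among the genes of iron storage and export, the ferritin heavy chain gene Fth1 rose from 4958, 4887, 3934 and 3889 CPM to 8353, 6009.8, 6174 and 6323 CPM without overlap (log2 fold change 0.60 ± 0.06 SE, adjusted p = 2.17e-08), as did the light chain gene Ftl1 (0.36) and the heme oxygenase gene Hmox1 (0.56). The exporter ferroportin, Slc40a1, fell from 98.1, 115, 121 and 116 CPM to 74.7, 89.2, 87.4 and 75.6 CPM, also without overlap (log2 fold change -0.47 ± 0.07 SE, adjusted p = 2.61e-05). Ncoa4, which delivers ferritin for degradation, fell by 0.28 on the log2 scale. In total 3 of 11 iron genes rose and 2 fell, against 9.29% and 5.95% of all genes. Csf1, the growth factor of microglia, rose from 52.4 ± 15.7 CPM to 103 ± 25.6 CPM (log2 fold change 0.93 ± 0.11 SE, adjusted p = 1.02e-06). It rose in cluster 3 as well but was not past the threshold in cluster 0 (log2 0.28, adjusted p = 0.415). Csf1r, its receptor, was at 2788 ± 127 CPM and 2714 ± 85.4 CPM (log2 -0.04, adjusted p = 0.627).

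Genes of oxidative phosphorylation and glycolysis rose by small amounts. Of 76 nuclear genes of oxidative phosphorylation 46 rose and 0 fell, with a median log2 fold change of 0.23, and 13 of 13 mitochondrially encoded genes rose, with a median of 0.37. The mitochondrial percentage is counted from mitochondrially encoded transcripts, so it is not a measure separate from the rise of those genes. Its part in the rises of the nuclear genes was not tested. Nor was the part that the higher UMIs per cell of the ATV:4D9 mice had in any of these rises. The cytochrome oxidase subunit gene Cox6a1 was at 173, 159, 149 and 156 CPM and 318, 228, 213 and 234 CPM (log2 fold change 0.61 ± 0.05 SE, adjusted p = 6.82e-09). The number of risen nuclear genes was 46 in cluster 3 alone, 20 in cluster 0 alone, 21 with finer clusters 0 and 2 only and 35 when scaled by UMI totals (8.25, 3.54, 5.36 and 5.76% of all genes rose in these), with medians of 0.30, 0.14, 0.12 and 0.12. Of 19 glycolytic genes 10 rose, with a median of 0.34, among them Gapdh (0.70). Pkm, the last enzyme of the pathway, was at 227, 177, 194 and 190.2 CPM and 448, 293, 277 and 337 CPM (log2 fold change 0.77 ± 0.05 SE, adjusted p = 1.19e-10). That count was 6 with finer clusters 0 and 2 only and 2 in cluster 0 alone. Without the block, 13 of the 76 nuclear, 2 of the 13 mitochondrially encoded and 3 of the 19 glycolytic genes rose, where 425 of all genes did. Where 9.29% of all genes rose and 5.95% fell, 3 of 24 genes of the citric acid cycle list rose (among them Mpc1, 0.23, and Mdh1, 0.15) and 1 fell (Idh2, -0.33). Mpc1, which the list includes, encodes a subunit of the mitochondrial pyruvate carrier and not an enzyme of the cycle. Of 19 fatty acid oxidation genes 0 rose and 1 fell (Acsl1, -0.36). The call of Acsl1 was lost without the ATV:4D9 mouse of pool 2 or 4 (log2 -0.38 to -0.29, adjusted p up to 0.104), and also without the block, with thinned sums, in cluster 0 alone and with finer clusters 0 and 2 only (log2 -0.35 to -0.29, adjusted p up to 0.321).

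Genes of protein synthesis and folding rose beside them. Of 34 cytosolic ribosomal protein genes 33 rose, with a median log2 fold change of 0.34. The largest rise was that of Rpsa, at 1203, 1180.3, 993 and 1049 CPM and 2501, 1728, 1824 and 1978 CPM (log2 fold change 0.85 ± 0.06 SE, adjusted p = 1.16e-10), a gene with processed copies in the genome that can share its reads. Of 18 ER chaperone genes 15 rose, with a median of 0.42, including Calr (0.74) and the master chaperone gene Hspa5 (0.66). Sdf2l1, an ER chaperone cofactor, was at 247, 199, 171 and 182 CPM and 534, 382, 287 and 319 CPM (log2 fold change 0.90 ± 0.05 SE, adjusted p = 1.38e-11). Of 16 heat shock chaperone genes 8 rose, among them Hsp90ab1 (0.67), Hspa8 (0.52) and the chaperonin genes Cct2 (0.32) and Cct5 (0.31), while the stress-inducible Hspa1a (0.22, adjusted p = 0.812) and Hspa1b (-0.42, adjusted p = 0.695) did not pass. Against 9.29% of all genes, 4 of 29 Myc and ribosome biogenesis genes rose, namely Npm1 (0.45), Odc1 (0.44), Pes1 (0.28) and Ncl (0.24), with a median of 0.05 that turned to -0.06 under scaling by UMI totals. Of 27 tRNA synthetase and ATF4 target genes 3 rose, namely the serine synthesis gene Psat1 (0.63), Ddit3 (0.27) and Slc3a2 (0.22), and 1 fell, Sesn2 (-0.68), shares near the 9.29% and 5.95% of all genes. The call of Sesn2 was lost without the ATV:4D9 mouse of pool 1, 2 or 4 or the isotype mouse of pool 1, 3 or 4 (log2 -0.69 to -0.55, adjusted p up to 0.215), and also in DESeq2, in limma/voom, without the block, in a fit of the compared groups only, with thinned sums, in cluster 0 alone and with finer clusters 0 and 2 only (log2 -0.67 to -0.53, adjusted p up to 0.563).

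A minority of DNA replication genes rose, from low levels. Of 26 members 10 rose and 0 fell (9.29% of all genes rose), with a median log2 fold change of 0.42. In cluster 3 alone 6 rose, in cluster 0 alone 2 and with finer clusters 0 and 2 only 5, where 8.25, 3.54 and 5.36% of all genes rose. Mcm2, a subunit of the replicative helicase, was at 5.71, 4.68, 7.32 and 6.63 CPM in the isotype mice and 10.3, 13.7, 7.95 and 15.1 CPM in the ATV:4D9 mice, without overlap (log2 fold change 1.11 ± 0.17 SE, adjusted p = 2.53e-05). Its call was lost in cluster 0 alone (log2 0.53, adjusted p = 0.368). Mcm5 (1.10), Mcm6 (0.92) and Lig1 (0.69) rose as well. Of 19 genes of mitosis, 1 rose, the spindle gene Nusap1 (1.41), which rested on 14 UMIs in the ATV:4D9 mice. Its call was lost without the ATV:4D9 mouse of pool 1 or 4 or the isotype mouse of pool 3 or 4 (log2 1.10 to 1.40, adjusted p up to 0.378), and also without the filter on low counts, without the block and among cells of 5000 to 15000 UMIs (log2 1.35 to 1.38, adjusted p up to 0.0972). In DESeq2 and in limma/voom 4 and 4 of the mitosis genes rose, and without the block 0. Of all 12545 genes, 1288, 1217 and 425 rose in these fits. Mki67, the proliferation marker, was at 2.48 ± 0.979 CPM and 3.32 ± 0.879 CPM (log2 0.48, adjusted p = 0.276). Both lists were far lower in the members than in the other cells of the ATV:4D9 mice, by a median log2 ratio of -2.87 and -3.55. Those ratios describe the members and are no separate result, because the clusters were drawn from these same transcripts.

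**Figure D4:**
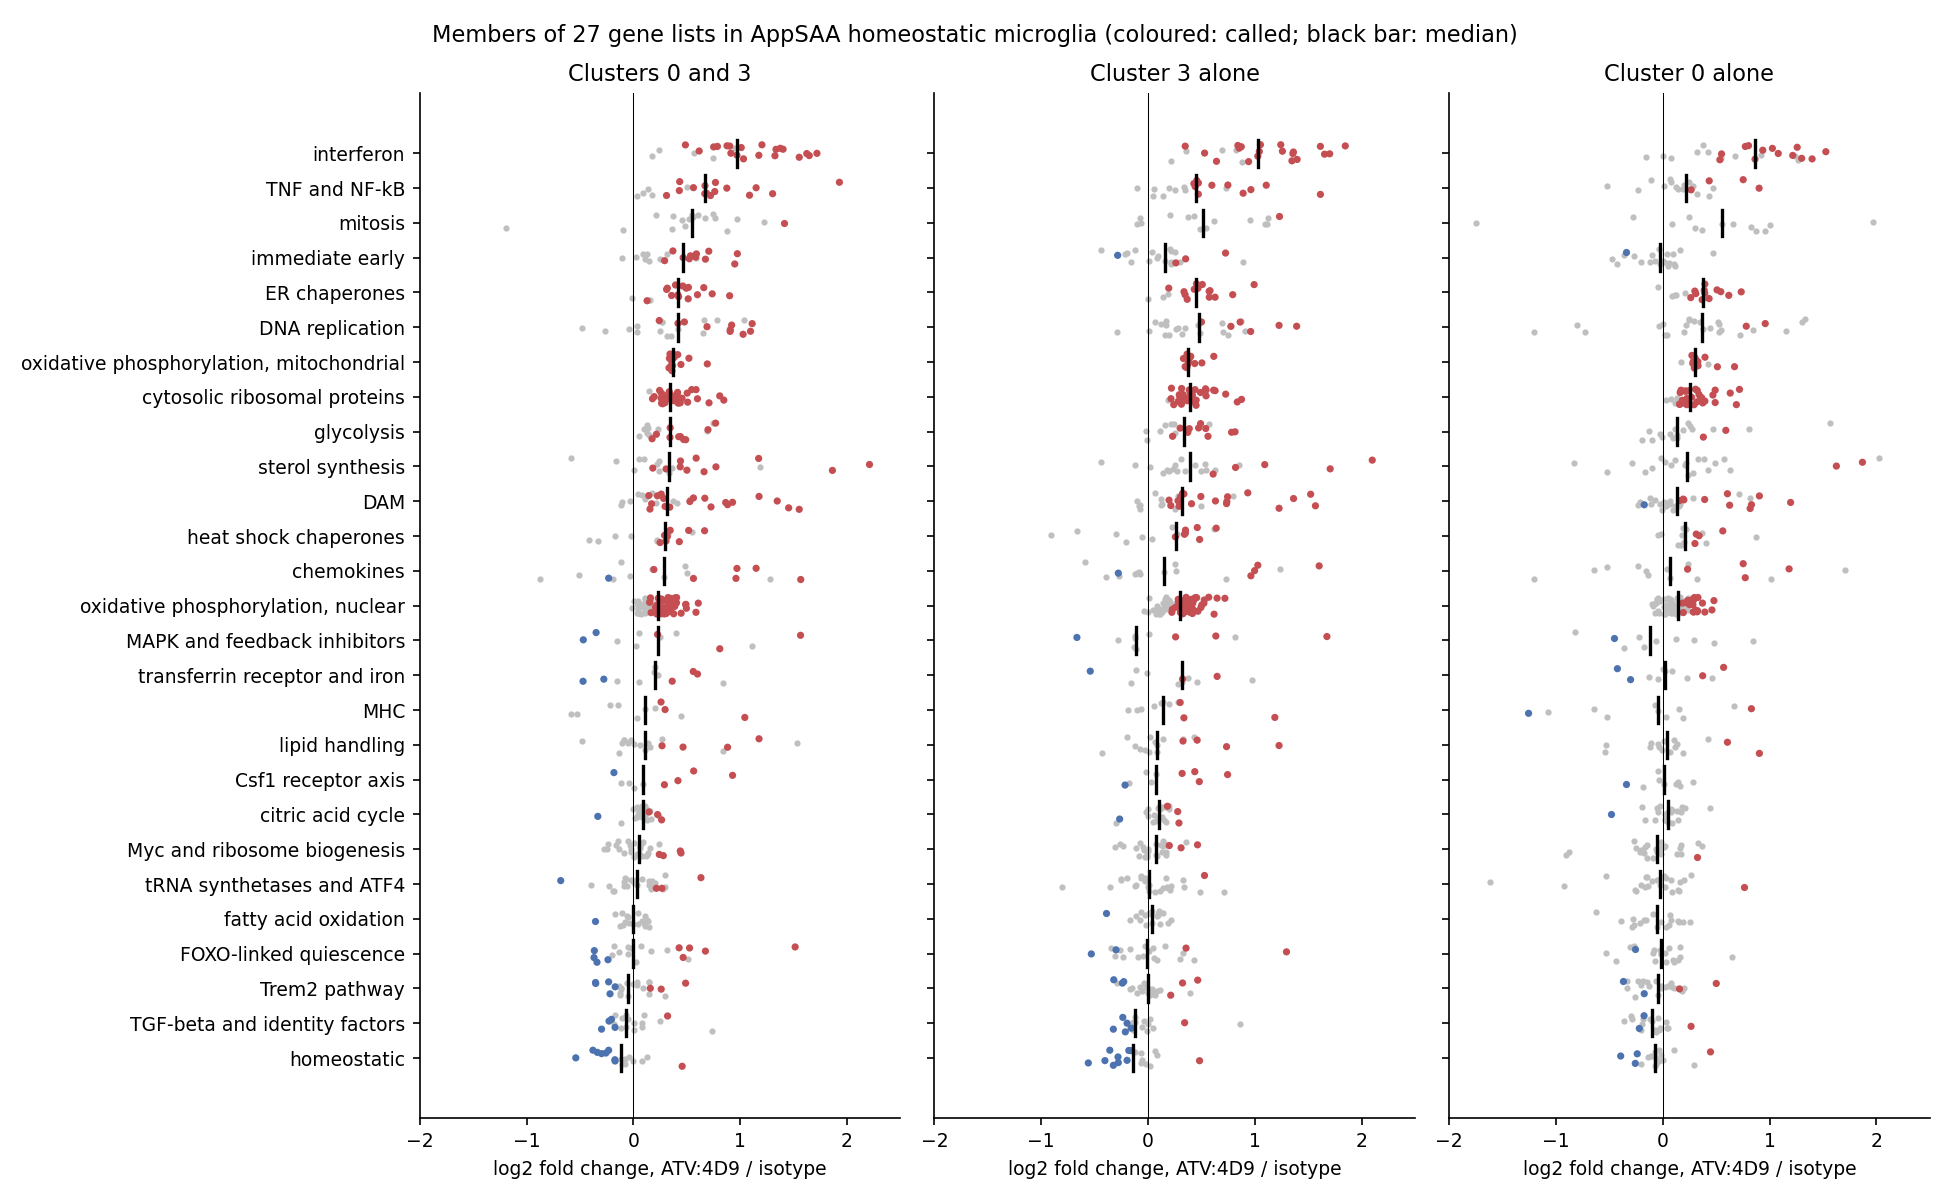
Log2 fold changes between AppSAA mice given ATV:4D9 and the isotype for the tested members of 27 gene lists, in clusters 0 and 3 summed, cluster 3 alone and cluster 0 alone, with called members red where higher and blue where lower, the others gray and the median of each list as a black bar. The interferon list has the highest median in all 3 panels, while the immediate early list has 12 risen members in the left panel, 3 in the middle and 0 on the right, where 1 chemokine gene lies off the axis.

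Cluster 3 alone, with 68 to 268 cells per ATV:4D9 mouse and 830 to 1448 per isotype mouse, gave 959 higher and 502 lower genes of 11628 tested (12.6%, of which 8.25% higher and 4.32% lower). Of these, 898 and 425 were also called in the same direction in the summed cells, which is 93.6% and 84.7% of the cluster 3 calls and 77.1% and 56.9% of the summed ones, and none was called in the opposite direction. The sums share their cells, so these overlaps are not independent. The largest rises in cluster 3 were those of Slc2a6 (1.98), Ifi27l2a (1.86), Vim (1.85), Oas1a (1.85) and Fxyd5 (1.74). Vim, the intermediate filament vimentin, was at 7.54, 5.77, 7.76 and 5.74 CPM in cluster 3 of the isotype mice and 28.6, 15.5, 14.0 and 30.1 CPM in that of the ATV:4D9 mice (log2 fold change 1.85 ± 0.20 SE, adjusted p = 1.46e-07). Vim reached the level of 10 CPM for named genes in the ATV:4D9 mice alone, as Slc2a6 and Oas1a did in cluster 3 too. The log2 fold change of Vim in cluster 0 was 0.06 (adjusted p = 0.978). The largest falls were those of Sema4b (-1.34), Hlf (-1.18), Paox (-0.99), the scaffold gene Bank1 (-0.97) and Arhgef10l (-0.92). With finer clusters 0 and 2 only, the calls of Sema4b (log2 -0.87, adjusted p = 0.053) and Hlf (log2 -1.05, adjusted p = 0.0535) in cluster 3 were lost. Bank1 was at 37.1 ± 2.08 CPM and 17.9 ± 2.88 CPM, without overlap (log2 fold change -0.97 ± 0.12 SE, adjusted p = 5.56e-07). Arhgef10l passed in the summed cells as well (log2 -0.51) but had the opposite sign in cluster 0 alone (0.04, adjusted p = 0.979). Its call in cluster 3 was lost without the ATV:4D9 mouse of pool 4 (log2 -0.57, adjusted p = 0.272) and that in the summed cells without the ATV:4D9 mouse of pool 1 or 4 or the isotype mouse of pool 4 (log2 -0.44 to -0.41, adjusted p up to 0.261). They were lost too without the block, with thinned sums and with finer clusters 0 and 2 only (log2 -0.88 to -0.67, adjusted p up to 0.187) and in DESeq2, without the block, in a fit of the compared groups only, among cells of 5000 to 15000 UMIs and with finer clusters 0 and 2 only (log2 -0.56 to -0.43, adjusted p up to 0.169), respectively. In cluster 0 alone, with 37 to 195 cells per ATV:4D9 mouse, 3.54% of the genes rose and 1.73% fell.

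No gene passed for the antibody without the vehicle. In AppSAA mice given 4D9, whose homeostatic clusters held 55.3 ± 2.56% of the cells, 0 of 12545 genes (0%) passed against the isotype in edgeR, with 378 at an unadjusted p under 0.05, and 0 passed in DESeq2 and in limma/voom. Without the filter on low counts 5 genes passed, and without the isotype mouse of pool 2 it was 1. Slc2a6 was at 3.79 ± 0.137 CPM, Il1b at 151 ± 17.9 CPM, Apoe at 1492 ± 366 CPM and P2ry12 at 2564 ± 38.5 CPM in these mice, with log2 fold changes of 0.18, 0.11, 0.17 and -0.03. The lists had small medians, with -0.10 for interferon (4 of 25 positive), 0.07 for DAM (26 of 30 positive) and 0.06 for TNF and NF-kB genes (16 of 20 positive). Furthest from 0 among the 27 lists were MHC genes (-0.14, 1 of 11 positive), heat shock chaperones (0.13, 14 of 16 positive) and ER chaperones (0.12, 18 of 18 positive). Small shifts in 1 direction were thus present in some lists without a called gene. Set against the 4D9 mice instead of the isotype mice, ATV:4D9 raised 1060 genes and lowered 667 (13.8%). Among the largest rises were those of Slfn5 (1.90), Slc2a6 (1.88), Il1b (1.82) and Ifi207 (1.79), and the largest falls those of Sema4b (-1.28), Nhsl2 (-1.12), Hlf (-1.02), 2900026A02Rik (-0.82) and Ppm1l (-0.82). The ATV:4D9 mice are the same in both comparisons. The call of 2900026A02Rik against 4D9 was lost without the 4D9 mouse of pool 2 or 4 or the ATV:4D9 mouse of pool 1, 2 or 3, and was smallest without the ATV:4D9 mouse of pool 2 (log2 -0.59).

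The effect was compared with that in homeostatic microglia of WT;TfRmu/hu mice, which lack the App knock-in. The interaction of genotype and antibody passed for 7 genes with a more positive effect in AppSAA mice and 16 with a more negative one (0.183% of 12545). Fcgr2b, the inhibitory Fc gamma receptor, changed by a log2 of 0.15 ± 0.05 SE in AppSAA and -0.31 ± 0.05 SE in WT mice (interaction 0.46, edgeR adjusted p = 0.00749). Its activating relative Fcgr3 changed by -0.07 ± 0.05 SE in AppSAA and -0.42 ± 0.05 SE in WT mice (interaction 0.35, adjusted p = 0.0181). The chromatin gene Samd1 had the largest positive interaction among genes at 10 CPM or more (0.72, adjusted p = 0.011), followed after Fcgr2b by Rassf4 (0.38), Fcgr3 and the long noncoding RNA Dleu2 (0.35). In the other direction, the matrix protease Adamts1 changed by 0.96 ± 0.14 SE in AppSAA and 1.82 ± 0.13 SE in WT mice (interaction -0.86, adjusted p = 0.0481). Cd180, a Toll-like receptor homolog, changed by 0.09 ± 0.07 SE in AppSAA and 0.73 ± 0.07 SE in WT mice (interaction -0.64, adjusted p = 0.00749). The chemokine Ccl6 (-0.55), Camk2n1 (-0.52) and Evi2a (-0.44) also passed as more negative. Of the 7 positive ones, 1 was Xist (5.87, adjusted p = 0.0481), a gene of female cells that was looked at after its value was seen, and the single female mouse was in the WT isotype group. The interactions of Fcgr2b, Samd1, Cd180 and Evi2a passed whichever mouse was left out. Those of Adamts1, Rassf4, Dleu2, Fcgr3, Ccl6 and Camk2n1 were lost without 11, 9, 7, 5, 5 and 1 of the 16 mice left out in turn, for Camk2n1 the ATV:4D9 mouse of pool 4 (interaction -0.45). The call of Fcgr2b in AppSAA mice was itself lost without 7 of 8 mice (log2 0.13 to 0.19), and under 14 of 19 alternatives in all. Over these 19 its log2 was 0.04 to 0.19, with adjusted p up to 0.616. The count of interactions was unstable, with 0 without the block, 121 without the filter on low counts, 102 in DESeq2 and 7 to 56 when 1 mouse was left out, of which the highest was without the WT isotype mouse of pool 1. Interferon genes had a median interaction of 0.45 with 0 of 25 passing, and DAM genes one of -0.02 with 2 of 30 passing as more negative, Ccl6 and Cd9 (-0.37). Immediate early genes had a median interaction of -0.31, with 1 of 21 positive and 0 passing.

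**Figure D5:**
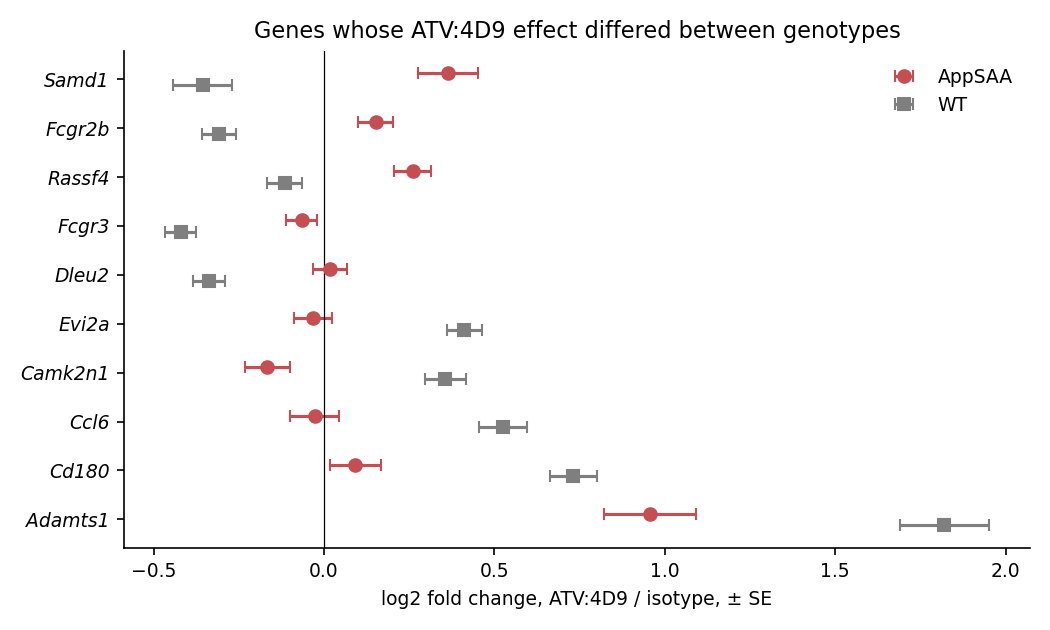
Log2 fold changes with their SE between ATV:4D9 and isotype in the homeostatic microglia of AppSAA (red circles) and WT (gray squares) mice for the 10 named genes whose interaction of genotype and antibody passed. Fcgr2b and Samd1 lie above 0 in AppSAA and below 0 in WT mice, while Adamts1 lies above 0 in both and further in WT mice.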

How the data were processed

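Single-cell RNA-seq libraries of sorted brain myeloid cells from 20 mice in 4 pools were analysed. Reads were aligned by the authors with Cell Ranger 6.1.1 (build mm10), and CellPlex tags gave the mouse of a cell. The authors deposited unnormalized UMI counts, with the mouse, pool, cluster and mitochondrial percentage of each cell. Every deposited cell of clusters 0 and 3 was kept, and no doublet caller was run. UMIs were summed per mouse and tested with edgeR 4.0.16 (filterByExpr, TMM, quasi-likelihood, all 20 mice, pool as block, Benjamini-Hochberg adjustment over all genes, called at 0.05). CPM use the TMM library sizes. The labels place 1 mouse of each group in every pool, and deviations from group means correlated above 0.1 in 39 of 40 same-pool pairs (0.073 to 0.543), so pools were taken to pair mice. Measures of a mouse were compared by two-sided exact permutation tests. Alternatives were RLE size factors, no filter, DESeq2 1.42.0, limma/voom 3.58.1, no block, leaving out each mouse, the compared groups only, thinned sums, cells of 5000 to 15000 UMIs and cluster 0 alone. Finer clusters and UMI totals were added after the data were seen. The members, gene lists and tests were chosen with earlier results of these data known. Named genes were the 10 largest called rises and falls at 10 CPM or more with the same direction in all pools (5 for other comparisons, with no such condition for the interaction), the called extremes of each list, and 11 set genes. Other members of the lists are examples chosen after their values were seen. Since the share of all genes with groups apart is not given, lack of overlap describes the genes named and no more. Some genes that this rule or a list holds are counted but not reported by name here.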

Additional observations from a re-analysis of the deposited data

Results flagged for a closer look

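The highest or lowest mouse of a group stood apart from the others by Dixon's criterion in 10 of the 160 groups of 4 mice that were tested, where chance gives about 1 in 20. The share of cluster 3 among the homeostatic cells was 53.5% in the ATV:4D9 mouse of pool 2, below the other 3. Oas1a was low in the isotype mouse of pool 4 (2.77 CPM) and high in the ATV:4D9 mouse of pool 1 (29.9 CPM). Sdk1 was low in the isotype mouse of pool 2 (8.77 CPM). In the ATV:4D9 mouse of pool 3, Dleu2 was at 274 CPM and Sesn2 at 5.96 CPM, each far from the other mice of its group. Ccl6 was low in the isotype mouse of pool 4 (223 CPM), Lat2 was high in that of pool 1 (203 CPM), Evi2a was high in the ATV:4D9 mouse of pool 4 (291 CPM) and Fth1 was high in that of pool 1 (8353 CPM). That mouse also had the smallest sum, 983429 UMIs.

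The effect of ATV:4D9 differed between AppSAA and WT mice for 10 named genes, by the interaction term in edgeR. It was more positive in AppSAA mice, on the log2 scale, for Samd1 (0.72), Fcgr2b (0.46), Rassf4 (0.38), Fcgr3 (0.35) and Dleu2 (0.35). It was more negative for Adamts1 (-0.86), Cd180 (-0.64), Ccl6 (-0.55), Camk2n1 (-0.52) and Evi2a (-0.44).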

How the results depend on the processing

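The share of cells in clusters 0 and 3 differed by -51.7 to -47.7 percentage points with each mouse left out, the share of cluster 3 by 16.3 to 20.2, the median UMIs by 755 to 1339.8 and the mitochondrial percentage by 0.113 to 0.376. With 3 mice against 4 the exact test cannot go below p = 0.0571, and the sign-flip test over the 4 pools, which respects the pairing, cannot go below 0.125. Among cells of 5000 to 15000 UMIs the share of cluster 3 differed by 17.9 percentage points and the median UMIs by 1149.6, each at an exact permutation p = 0.0286, adjusted p = 0.0429. There 3 measures were adjusted for and not 4, and for the share of cluster 3 that number alone moved the adjusted p from 0.0571, as its unadjusted p was the same. The 1912 calls of ATV:4D9 against isotype became 563 without the pairing by pool (425 higher, 138 lower), 616 in cluster 0 alone, 1055 with finer clusters 0 and 2 only, 3030 with UMI totals and 1217 to 1766 with each mouse left out, lowest without the ATV:4D9 mouse of pool 4. The 1461 calls in cluster 3 became 504 without the pairing, 961 with thinned sums, 612 with finer clusters 0 and 2 only, 2229 with UMI totals (614 higher, 1615 lower) and 975 to 1389 with each mouse left out. For 4D9 against isotype, 5 genes passed without the filter and 0 to 1 with each mouse left out. The 1727 calls of ATV:4D9 against 4D9 became 454 without the pairing, 910 with finer clusters 0 and 2 only, 2725 with UMI totals (668 higher, 2057 lower) and 1041 to 1647 with each mouse left out. The 23 interactions became 121 without the filter, 102 in DESeq2, 0 without the pairing and 7 to 56 with each mouse left out. The cause of these shifts was not tested, and the restricted sums also held fewer cells.

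For the named genes, 1776 of 1999 alternative values kept their direction and side of the threshold, 193 lost and 12 gained the call, and 48 of 106 genes and comparisons did not change under any alternative. Without the pairing the calls of Olfml3 (log2 0.47, adjusted p = 0.0896), Pik3cg (-0.33, 0.356) and Idh2 (-0.36, 0.096) were lost too. The reversed values, of genes that were mostly not called, were log2 fold changes of 0.043 for Arhgef10l, -0.029 for Cd180, 0.043 for Ccl6, -0.22 for Phlda1 and -0.045 for Tfrc in cluster 0 alone. With finer clusters 0 and 2 only they were 0.0017 for Fcgr3, -0.010 for Cd180 and -0.028 for Plcg2, and with UMI totals -0.10 for Dleu2, -0.023 for Cd180 and -0.078 for Plcg2. Dleu2 was at -0.0055 without the filter and Plcg2 at -0.034 among cells of 5000 to 15000 UMIs. With each mouse left out, Dleu2 ranged from -0.022 to 0.034 (negative without the ATV:4D9 mouse of pool 1 or the isotype mouse of pool 3), Ccl6 from -0.15 to 0.063 (positive without the ATV:4D9 mouse of pool 2 or the isotype mouse of pool 3) and Plcg2 from -0.0065 to 0.060 (negative without the ATV:4D9 mouse of pool 4). Phlda1 was called in the sum of both clusters and Arhgef10l too. Under scaling by UMI totals the median turned negative for the Csf1 receptor axis, MHC, Myc, citric acid cycle, lipid handling and tRNA lists. The ATV:4D9 sums of 105 to 419 cells limit what can be seen of genes under 10 CPM.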

Other observations

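In the homeostatic microglia of the AppSAA mice, of 11 MHC genes 0 fell and 3 rose with ATV:4D9 (9.29% of all genes rose), namely Cd74 (1.04), the invariant chain of class II molecules, H2-K1 (0.26) and B2m (0.30) of class I (log2 fold changes in edgeR), in overlapping groups. In the axis of the Csf1 receptor, the receptor subunit genes Csf2ra (0.42) and Csf2rb (0.29) and the transcription factor gene Cebpb (0.56) rose beside Csf1, and Csf3r fell (-0.18), a call lost without the ATV:4D9 mouse of pool 1 or 4 or the isotype mouse of pool 4 (log2 -0.17 to -0.15, adjusted p up to 0.0906), and also without the block, with thinned sums, among cells of 5000 to 15000 UMIs, in cluster 0 alone and with finer clusters 0 and 2 only (log2 -0.19 to -0.14, adjusted p up to 0.494). In cluster 0 alone 0 of the 9 genes of this axis rose and 1 other gene fell, where 3.54% and 1.73% of all genes did.

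Of 20 genes linked to FOXO factors and quiescence, 5 rose and 4 fell, where 9.29% of all genes rose and 5.95% fell, with a median of -0.0013. The falls numbered 1 in limma/voom, 1 with thinned sums, 1 among cells of 5000 to 15000 UMIs, 1 with finer clusters 0 and 2 only and 0 without the block. Of all genes, 615, 418, 560, 385 and 138 fell in these fits. In cluster 3 alone 2 rose and 2 fell, where 8.25% and 4.32% of all genes did. In cluster 0 alone 0 rose and 1 fell, where 3.54% and 1.73% of all genes did. Foxo3 (-0.34), Ccng2 (-0.24), Tcp11l2 (-0.37) and Foxo1 (-0.37) fell, while Gadd45b (1.51), Klf2 (0.67), Bcl6 (0.53), Btg2 (0.47) and Btg1 (0.43) rose. Gadd45b did not pass in cluster 0 alone (0.05, adjusted p = 0.967). The call of Foxo1 was lost without the ATV:4D9 mouse of pool 2, 3 or 4 or the isotype mouse of pool 3 (log2 -0.40 to -0.32, adjusted p up to 0.164), and also in limma/voom, without the block, with thinned sums, among cells of 5000 to 15000 UMIs, in cluster 0 alone and with finer clusters 0 and 2 only (log2 -0.44 to -0.17, adjusted p up to 0.501). Of 11 genes of MAPK signaling and its inhibitors, Phlda1 (1.57), the kinase gene Map3k8 (0.81) and Ccnd1 (0.23) rose, and Spry1 (-0.47) and Etv5 (-0.35) fell. The median of this list was 0.23. In cluster 3 alone 3 rose and 1 fell with a median of -0.12, where 8.25% and 4.32% of all genes did. In cluster 0 alone 0 of 10 rose and 1 fell with a median of -0.12 (3.54% and 1.73% of all genes). Within the isotype mice the list was higher in cluster 3 than in cluster 0 by a median log2 ratio of 0.83. The call of Phlda1 was lost without the ATV:4D9 mouse of pool 4 (log2 1.07, adjusted p = 0.0605), and that of Spry1 without the ATV:4D9 mouse of pool 4 or the isotype mouse of pool 4 (log2 -0.45 to -0.42, adjusted p up to 0.112), and also in limma/voom, without the block, with thinned sums, in cluster 0 alone and with finer clusters 0 and 2 only (log2 -0.82 to -0.40, adjusted p up to 0.127).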
